A study of Homo sapiens with 4 samples.

Results

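The 32 genes described here make cholesterol and fatty acids or govern that synthesis, and were followed in U87 cells, an established human glioblastoma line. They were taken from a fixed list: 19 enzymes that lead from acetyl-CoA to cholesterol, 7 enzymes of fatty acid synthesis, elongation and desaturation, 5 regulators and sterol carriers, and the cholesterol exporter ABCA1. All 32 were among the 22017 genes that the deposited table held, and all 32 passed the filter on low values that left 16523 genes for testing.

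The mimic libraries came from U87 cells 48 h after transfection with 50 nM of a mimic of tRF-3009a, a short fragment of a transfer RNA. The control libraries came from cells given the same dose of ssGL2, 1 strand of the siRNA that targets the firefly luciferase gene, which human cells lack. Both groups were transfected with lipofectamine 2000, grown in medium with fetal serum, which carries lipoproteins, and had no genetic change named in the labels. Each group had 2 libraries, numbered 1 and 2. The labels do not say whether these were separate cultures or what the number stands for, so p-values measure only the spread between these libraries, which may be technical. U87 is 1 cell line, and a result in it holds for that line.

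In animal cells, cholesterol is built from acetyl-CoA through mevalonate, isoprenoid units, squalene and lanosterol. When membranes of the endoplasmic reticulum hold little cholesterol, SCAP carries the SREBP factors to the Golgi, where they are cut and released to switch on genes of both pathways; INSIG proteins hold SCAP back when cholesterol is plentiful. Fatty acid synthesis draws on the same acetyl-CoA, and SREBF1 is best known for driving its enzymes, SREBF2 for driving the sterol enzymes. Glioma cells are known for taking up cholesterol from lipoproteins as well as making it, and liver X receptors switch on ABCA1 when sterols build up.

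Depth was 28860788 to 33848402 recovered reads per library. The libraries stood apart by number more than by treatment: 3504 genes differed over 2-fold between mimic 2 and mimic 1 and 3434 between control 2 and control 1, against 633 between mimic 2 and control 2 and 741 between mimic 1 and control 1. Each treatment contrast is therefore given within each number as well, and the number contrast is described on its own. Of all genes tested, 26.0% were higher and 24.2% lower in number 2. The lists set beside the members were chosen with earlier results of these data known. Beside the members, 10 of 10 proliferation genes were lower in number 2 (median log2 difference -2.01), led by RRM2 (-2.92) and TYMS (-2.74). All 8 genes of the ATF4 stress response were higher (median 3.64), led by CHAC1 (5.14) and DDIT4 (4.70), and 5 of 6 inflammatory genes were higher (median 3.73), led by IL6 (5.52) and CXCL8 (5.16). Of 13 mitochondrially encoded genes 3 were lower (23.1%, near the share of all genes), MT-ND2 (-0.48) and MT-CO2 (-0.40) the most. The 13 genes held between 3.37% and 4.18% of the summed values.

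U87 is known as a mesenchymal-like glioma line, and its markers were present. Of 5 such markers 4 were lower in number 2, and their summed value was 210414 in mimic 2 and 222813 in control 2, against 393167 in mimic 1 and 435479 in control 1. Astrocyte markers were low. Their sum was 230.1 in mimic 2 and 359 in control 2, against 972 in mimic 1 and 1059.6 in control 1. Most of this sum was SLC1A3, which was lower in number 2 (log2 difference -1.90, SE 0.20, limma adjusted p = 5.72e-05). GFAP, the only other astrocyte marker tested, had the other sign (0.16) and did not pass. S100B and AQP4 had no values. Of the 3 neuronal markers tested, SNAP25 was lower (-3.13), while SYP (0.40) and SLC17A7 (0.76) had the other sign and did not pass; the sum was 127 in mimic 2 and 129 in control 2, against 740.3 in mimic 1 and 811 in control 1. Of the 4 epithelial markers, ESRP1 was higher (4.52), EPCAM was lower (-1.58), and CDH1 (0.37) and KRT8 (0.22) did not pass; the sum was 409 in mimic 2 and 391 in control 2, against 201 in mimic 1 and 242 in control 1. Both endothelial markers tested, TEK (-2.23) and PECAM1 (-1.24), were lower, with sums of 41.1 in mimic 2 and 51.5 in control 2, against 175 in mimic 1 and 154 in control 1. Immune markers had sums from 6.72 to 9.36 and oligodendrocyte markers from 11.4 to 18.1. The part of these differences in the results below was not tested. In bulk RNA, fewer cells of a kind and less RNA per cell cannot be told apart.

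Levels were compared between genes per kilobase of transcript. The desaturase SCD, with a mean of 4021 ± 853 (SD, n = 4 libraries), and ACLY, with 2997 ± 527, had the highest means. The order of the next genes differed between numbers. FDPS had 2207 in mimic 2 and 1813 in control 2, against 2269.8 in mimic 1 and 2362 in control 1. ABCA1 exceeded it in number 2, with 2287 in mimic 2 and 2106 in control 2, against 1466 in mimic 1 and 1332 in control 1. LSS had 2024 in mimic 2 and 2224 in control 2, against 1336 in mimic 1 and 1499.8 in control 1. It was above ABCA1 in both control libraries and below it in both mimic libraries. INSIG1 was below ABCA1 in number 2 and above it in number 1, with 1289.5 in mimic 2 and 1174 in control 2, against 1995 in mimic 1 and 2085 in control 1. The lowest sterol enzymes were TM7SF2, at 29.8 ± 11.4, ACAT2, at 121 ± 60.8, and HSD17B7, at 148 ± 6.11. ACAT2 was below HSD17B7 in both number 2 libraries and above it in both number 1 libraries. TM7SF2 and LBR can each reduce the same sterol double bond, and LBR, at 376 ± 137 per kilobase, was the more abundant of the pair.

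**Figure D1:**
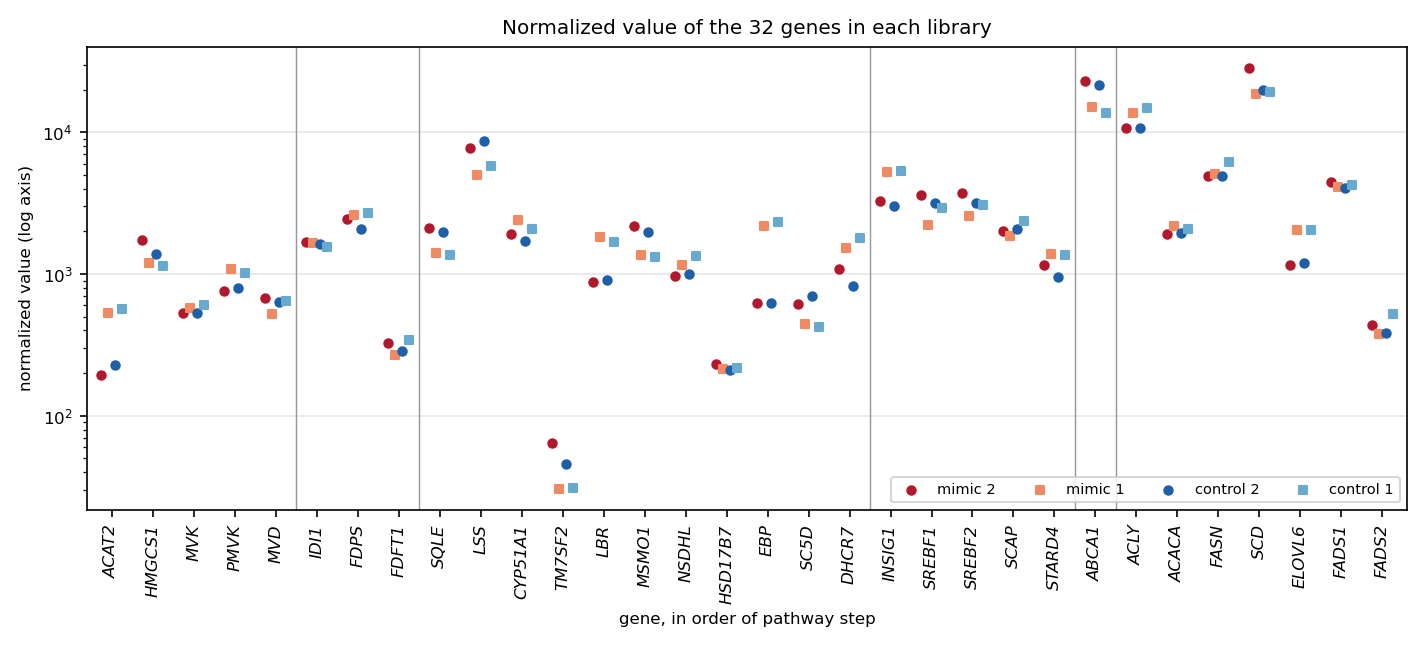
Normalized value (log axis) of the 32 genes in each of the 4 libraries, in order of pathway step, with grey lines between the mevalonate arm, the isoprenoid and squalene steps, the steps from squalene to cholesterol, the regulators, ABCA1 and the fatty acid enzymes. For EBP, ACAT2 and LBR both circles (number 2) lie below both squares (number 1), whereas for LSS, MSMO1 and ABCA1 both circles lie above.

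The first question was whether the tRF-3009a mimic changed these genes. No member passed the test of a difference between the mimic and control libraries. Of 16523 genes, 0.0% passed limma's test at an adjusted p of 0.05, and 0 of 32 members passed or had an unadjusted p under 0.05. At that unadjusted level limma gave 26 genes, edgeR 35 and DESeq2 23, none a member, and neither of the other tools gave a gene past adjustment. With replicate number as a block, 117 genes passed in limma and 91 in edgeR, none a member; 1021 and 924 genes had an unadjusted p under 0.05, among them 3 members in limma and 2 in edgeR. Each group held 1 library of each number, so the number difference entered the spread within groups, and a p that misses the threshold does not show that the mimic left these genes unaltered.

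The sizes of the differences give what the data hold. The log2 differences of the members ran from -0.21 to 0.23, with a median of 0.01, against a median of -0.01 over all genes tested. In no member did mimic and control differ over 1.5-fold within either number, whereas 12 members differed by more than that between the mimic libraries and 9 between the controls. The groups did not overlap in 2 of 32 members (6.25%), and in 12.4% of all genes tested. IDI1, the isomerase of the isoprenoid unit, had 1693 in mimic 2, 1653 in mimic 1, 1627 in control 2 and 1549 in control 1. SCAP, the SREBP escort, had 1999.9 in mimic 2, 1843 in mimic 1, 2078 in control 2 and 2366 in control 1. IDI1 was higher and SCAP lower in both mimic libraries, and neither passed the test.

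SCD, the enzyme that puts the first double bond into saturated fatty acids, had the largest mean difference. It had 28377 in mimic 2, 18616 in mimic 1, 19910.0 in control 2 and 19343 in control 1. Mimic 2 stood apart from the other 3 libraries, which lay close together. The log2 difference was 0.51 within number 2 and -0.06 within number 1, and its mean of 0.23 (SE 0.28) was -0.08 without mimic 2. HMGCS1, the synthase that makes the precursor of mevalonate, had 1736 in mimic 2, 1199.5 in mimic 1, 1377 in control 2 and 1139.8 in control 1. Mimic 2 was the highest here too, and the mean difference of 0.20 (SE 0.29) was -0.06 without it. TM7SF2 had 63.9 in mimic 2, 30.6 in mimic 1, 46 in control 2 and 31.2 in control 1, with few reads and a mean difference of 0.22 (SE 0.55) that was -0.30 without mimic 2.

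The direction often differed between numbers. Of the 32, 7 were higher in mimic in both numbers, 7 were lower in both and 18 had opposite signs. The sign was the same in both numbers in 14 of 32 members and in 8268 of 16523 genes tested. These shares are close and are no result about the members as a group. CYP51A1, the lanosterol demethylase, was higher in mimic by 0.16 on the log2 scale within number 2 and 0.20 within number 1. STARD4, a soluble sterol carrier, was higher by 0.29 within number 2 and 0.03 within number 1. LSS, the cyclase that forms lanosterol, was lower in mimic, with log2 differences of -0.16 within number 2 and -0.22 within number 1. ACAT2, the thiolase that joins acetyl-CoA units, was also lower, with -0.23 within number 2 and -0.09 within number 1. Each of these differences is a single pair of libraries and has no test of its own.

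Within number 2, 21 of 32 members were higher in mimic, against 45.2% of all genes, with a median of 0.11 against -0.02 over all genes. Within number 1, 11 of 32 were higher, against 49.3% of all genes, with a median of -0.05 against 0.00. Each count rests on 1 pair of libraries. Fatty acid enzymes were higher in mimic in 5 of 7 within number 2 and in 1 of 7 within number 1, sterol enzymes in 11 of 19 and in 8 of 19, and the regulators and carriers in 4 of 5 and in 1 of 5. ABCA1 was higher in both, by 0.11 within number 2 and 0.13 within number 1. FADS2, a desaturase of polyunsaturated fatty acids, differed by 0.18 within number 2 and -0.47 within number 1. SREBF1, the SREBP gene tied to fatty acid synthesis, differed by 0.17 within number 2 and -0.39 within number 1. Whether the effect of the mimic differs between numbers could not be tested, since 1 library of each kind leaves no spread.

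**Figure D2:**
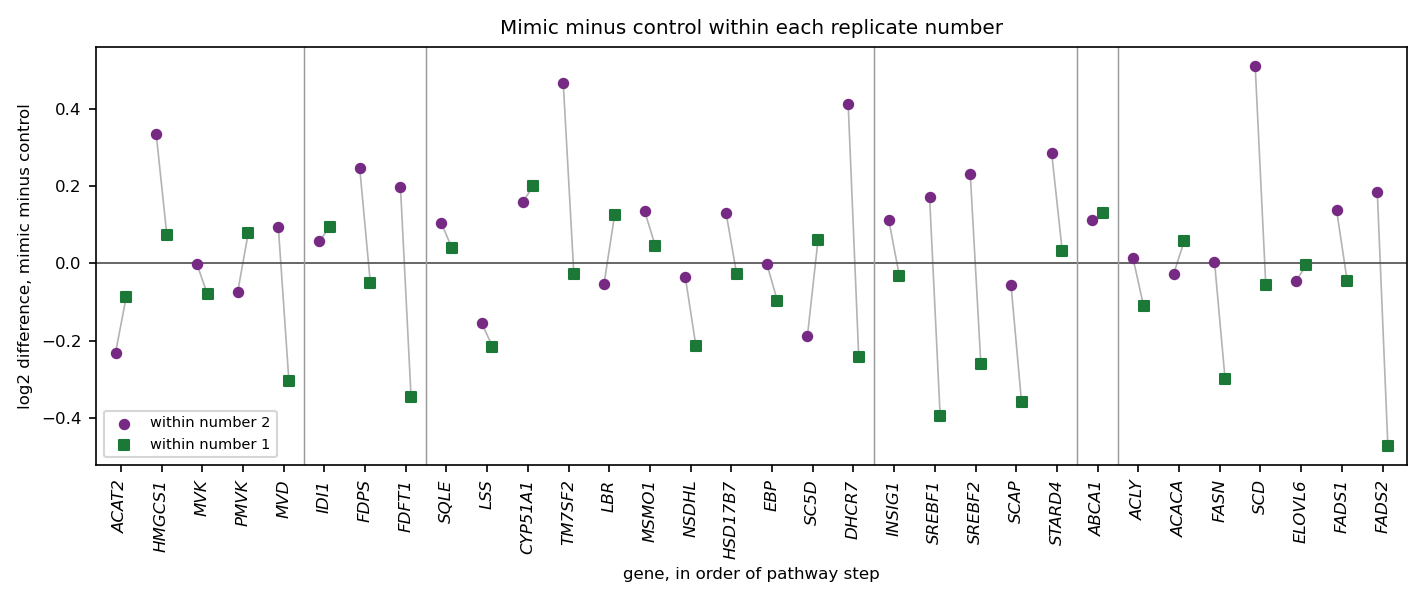
Log2 difference, mimic minus control, within number 2 (circles) and within number 1 (squares) for each of the 32 genes; each point rests on 1 mimic and 1 control library. SCD, DHCR7, TM7SF2 and FADS2 are joined by long lines that cross 0, and points of CYP51A1, LSS, IDI1 and ABCA1 lie on 1 side of 0.

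The second question was how the same genes differed between the libraries numbered 2 and those numbered 1, the contrast that dominated the series. Members passed in both directions. Of the 32 members, 7 were higher in number 2 (21.9%, against 26.0% of all genes tested) and 11 were lower (34.4%, against 24.2%), and 14 did not pass. In all 56.2% of members passed, against 50.2% of all genes, and numbers did not overlap in 25 members (78.1%), against 75.8% of all genes. These shares lie near those of all genes and are no result about the members as a group. The median log2 difference was -0.08 for members and 0.01 for all genes, and the median size regardless of sign was 0.40 for members and 0.45 for all genes. In this test 1 mimic and 1 control library form each side, so the spread behind the p-values is the one between treatments. With each library left out in turn, 11 of the 18 calls held, 5 higher and 6 lower, and the other 7 were lost at least once; a side left with 1 library was then assumed to vary like the other.

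Sequences of 5 promoters are shown because members with the same short upstream words went opposite ways between the numbers. RefSeq (GRCh38.p14) gave an entry for 28 of the 32 genes, with 37 windows of the 250 bases before a start. The stretches below are parts of those windows, read 5′ to 3′ along the gene's strand. All but that of DHCR7 lie upstream of every GENCODE v29 exon of the gene. Capitals mark CCAAT, the letters bound by NF-Y, a common partner of SREBP, or its complement ATTGG; in SREBF2 they also mark a match to the sterol element TCACNCCAC. DHCR7 (chr11:71448436-71448643, minus strand) and INSIG1 (chr7:155297628-155297775, plus strand) were lower in number 2, MSMO1 (chr4:165327419-165327622, plus strand) and LSS (chr21:46228825-46229024, minus strand) were higher, and SREBF2 (chr22:41832855-41833078, plus strand) did not pass the test. For DHCR7 the stretch is from 1 of its 2 windows. It lies inside the GENCODE v29 bounds of the gene, which reach upstream to 71452868. The SREBF2 stretch also lies within an exon of a gene on the minus strand.
DHCR7: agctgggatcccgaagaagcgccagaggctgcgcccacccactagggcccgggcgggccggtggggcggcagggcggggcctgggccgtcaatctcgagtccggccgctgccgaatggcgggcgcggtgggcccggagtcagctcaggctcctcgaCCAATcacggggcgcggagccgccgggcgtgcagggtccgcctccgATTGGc
INSIG1: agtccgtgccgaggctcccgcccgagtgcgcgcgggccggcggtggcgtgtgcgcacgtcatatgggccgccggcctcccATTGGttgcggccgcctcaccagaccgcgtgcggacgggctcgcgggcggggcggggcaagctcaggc
MSMO1: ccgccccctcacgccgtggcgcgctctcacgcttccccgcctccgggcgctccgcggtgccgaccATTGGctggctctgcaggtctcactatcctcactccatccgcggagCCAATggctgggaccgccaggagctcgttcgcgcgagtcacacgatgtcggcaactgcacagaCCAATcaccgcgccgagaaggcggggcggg
LSS: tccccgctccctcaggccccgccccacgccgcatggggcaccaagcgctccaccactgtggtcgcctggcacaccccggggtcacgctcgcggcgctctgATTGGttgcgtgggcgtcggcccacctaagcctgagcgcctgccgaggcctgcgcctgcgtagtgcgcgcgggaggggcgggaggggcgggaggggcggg
SREBF2: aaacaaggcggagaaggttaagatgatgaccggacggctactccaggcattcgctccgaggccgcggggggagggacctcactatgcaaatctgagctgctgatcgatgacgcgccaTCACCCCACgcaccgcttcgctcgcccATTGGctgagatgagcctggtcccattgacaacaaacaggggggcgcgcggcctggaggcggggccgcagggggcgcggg
Over the 37 windows, searched on both strands, CCAAT stood in 23 (62.2%), from 19 genes, against 32.01% of 35116 windows of all genes. The GC box GGGCGG stood in 32 member windows (86.5%), against 42.6% of all, and CACGTG in 5 (13.5%), against 6.35%. TCACNCCAC matched in 1 of 37, SREBF2, where it begins 133 bases before the start, and in 0.883% of all windows. CCAAT and TCACNCCAC share no letters in any printed stretch. These matches describe letters only, and no binding was measured.

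The first steps of the mevalonate arm went opposite ways. ACAT2, the first enzyme, lies on chromosome 6, 159760328 to 159779055 on the plus strand (GRCh38). It had 194 in mimic 2 and 228 in control 2, against 530.0 in mimic 1 and 563 in control 1, 2.6-fold lower in number 2 (log2 difference -1.38, SE 0.14, limma adjusted p = 4.69e-05). Both number 2 libraries lay far below both number 1 libraries, whatever the treatment. HMGCS1, the next step, went the other way, with 1736 in mimic 2 and 1377 in control 2, against 1199.5 in mimic 1 and 1139.8 in control 1. It was 1.32-fold higher (log2 difference 0.40, SE 0.12, limma adjusted p = 0.0185), but not without mimic 2 (0.24, adjusted p = 0.208) or without control 1 (0.37, adjusted p = 0.0764), nor by its highest transcript alone (0.37, adjusted p = 0.0977). PMVK, the second of the mevalonate kinases, had 759 in mimic 2 and 799 in control 2, against 1079 in mimic 1 and 1022 in control 1. That made it lower in number 2 (log2 difference -0.43, SE 0.10, limma adjusted p = 0.00503), a call that was lost without mimic 2 (-0.39, adjusted p = 0.0734). MVK, the first kinase (-0.16, adjusted p = 0.251, limma), and MVD, the decarboxylase (0.17, adjusted p = 0.307, limma), did not pass.

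None of the 3 enzymes from the isoprenoid units to squalene passed, against 50.2% of all genes tested. IDI1 had 1693 in mimic 2 and 1627 in control 2, against 1653 in mimic 1 and 1549 in control 1, a narrow range with a log2 difference of 0.05 between numbers. FDPS, which makes farnesyl diphosphate for sterols and for protein prenylation, had 2460.2 in mimic 2 and 2075 in control 2, against 2604 in mimic 1 and 2697 in control 1, and its log2 difference of -0.23 had a limma adjusted p of 0.0788; it passed with libraries scaled to equal totals (-0.27, adjusted p = 0.0452) and with treatment as a term beside the number (-0.23, adjusted p = 0.0427). FDFT1, the squalene synthase that commits the route to sterols, differed by 0.01 and overlapped. Its value was low, 209 per kilobase against 2163 for FDPS, and was spread over 13 transcripts, the highest with 20.6% of it. Table rows that did not match GENCODE v29 may hold further FDFT1 reads, which was not tested.

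From squalene onward, 9 of 11 enzymes passed (81.8%, against 50.2% of all genes), 4 higher and 5 lower. SQLE, LSS and MSMO1 were among the higher ones, whereas CYP51A1, which acts on the lanosterol that LSS forms, was lower (log2 difference -0.29). SQLE, the epoxidase that controls entry of squalene into sterols, had 2114 in mimic 2 and 1965 in control 2, against 1408 in mimic 1 and 1369 in control 1 (log2 difference 0.55, SE 0.09, limma adjusted p = 0.000656). LSS, on chromosome 21, 46188141 to 46228824 on the minus strand, followed the same direction with 7777 in mimic 2 and 8664 in control 2, against 5009.6 in mimic 1 and 5817 in control 1 (log2 difference 0.60, SE 0.10, limma adjusted p = 0.000734). MSMO1, an oxidase that acts in the removal of ring methyl groups, lies on chromosome 4, 165327623 to 165343160 on the plus strand. It had 2166 in mimic 2 and 1972 in control 2, against 1354 in mimic 1 and 1312 in control 1 (log2 difference 0.63, SE 0.09, limma adjusted p = 0.00036). All 3 genes had both number 2 libraries above both number 1 libraries and were higher by similar factors, 1.47-fold, 1.52-fold and 1.55-fold. SC5D, a desaturase near the end of the route, had 619 in mimic 2 and 705 in control 2, against 442 in mimic 1 and 424 in control 1 (log2 difference 0.61, SE 0.12, limma adjusted p = 0.00222); by its highest transcript alone it did not pass (0.37, adjusted p = 0.194).

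The lower enzymes lay between and after these. EBP, the sterol isomerase on chromosome X, 48521158 to 48528716 on the plus strand, differed most of all members. It had 629 in mimic 2 and 629 in control 2, against 2165 in mimic 1 and 2316 in control 1, 3.56-fold lower in number 2 (log2 difference -1.83, SE 0.09, limma adjusted p = 7.76e-07). Mimic and control values lay close together within each number, with log2 differences between numbers of -1.78 in mimic and -1.88 in control libraries. SC5D, which acts after EBP, was among the higher genes. LBR, which is both a sterol reductase and an anchor of the nuclear lamina, had 873 in mimic 2 and 907 in control 2, against 1839.5 in mimic 1 and 1688 in control 1. It was 1.98-fold lower in number 2 (log2 difference -0.99, SE 0.09, limma adjusted p = 3.18e-05). TM7SF2, the reductase with the same reaction, had 63.9 in mimic 2 and 46 in control 2, against 30.6 in mimic 1 and 31.2 in control 1; its difference of 0.79 had the opposite sign and a limma adjusted p of 0.0575, and by its highest transcript alone it was -0.14. A direct test of LBR against TM7SF2 was not made.

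DHCR7, the reductase that turns 7-dehydrocholesterol into cholesterol, had 1092 in mimic 2 and 820.3 in control 2, against 1526 in mimic 1 and 1807 in control 1. It was 1.75-fold lower in number 2 (log2 difference -0.81, SE 0.14, limma adjusted p = 0.00136), with log2 differences of -0.48 between the mimic libraries and -1.14 between the controls. CYP51A1 had 1924 in mimic 2 and 1724 in control 2, against 2392 in mimic 1 and 2083 in control 1 (log2 difference -0.29, SE 0.10, limma adjusted p = 0.0356). NSDHL, a dehydrogenase that acts after MSMO1 in the removal of ring methyl groups, had 968 in mimic 2 and 993 in control 2, against 1158 in mimic 1 and 1344 in control 1 (log2 difference -0.35, SE 0.10, limma adjusted p = 0.0196). Both were lower in number 2 in either treatment, but the calls did not hold with every library left out. The CYP51A1 call was lost without mimic 1 (-0.19, adjusted p = 0.137), without mimic 2 (-0.37, adjusted p = 0.0916), without control 2 (-0.21, adjusted p = 0.282) and by its highest transcript alone (-0.21, adjusted p = 0.177). The NSDHL call was lost without mimic 2 (-0.33, adjusted p = 0.144), without control 1 (-0.24, adjusted p = 0.0679), without control 2 (-0.37, adjusted p = 0.113) and by its highest transcript alone (-0.42, adjusted p = 0.0836). HSD17B7, the reductase that follows NSDHL, differed by 0.03, and its numbers overlapped.

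**Figure D3:**
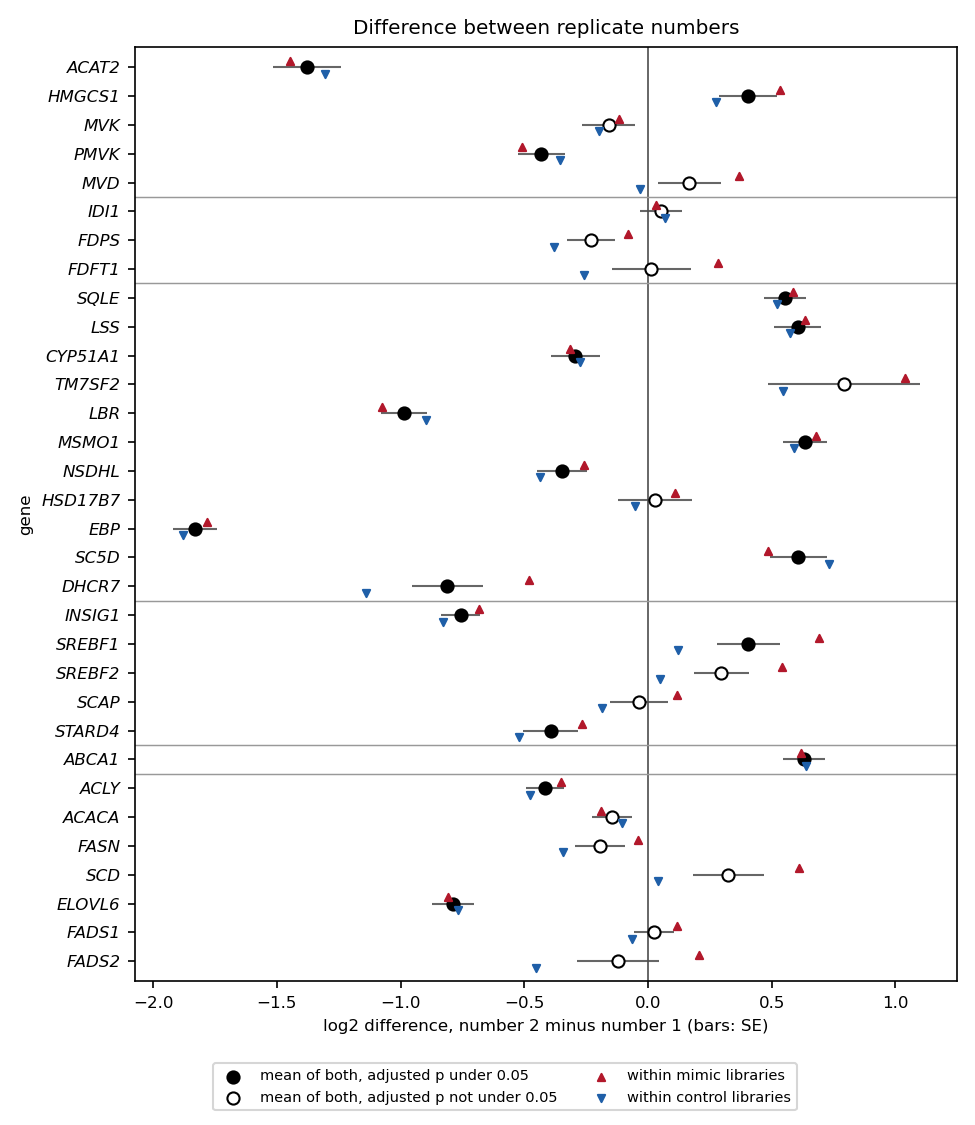
Log2 difference, number 2 minus number 1, of each of the 32 genes: circles are the mean over both treatments with its SE (filled where the limma adjusted p was under 0.05), up triangles the difference between the mimic libraries and down triangles that between the control libraries. EBP, ACAT2 and LBR lie farthest to the left with their triangles close together, whereas the triangles of DHCR7, SREBF1, SCD and FADS2 lie far apart.

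The summed normalized value over the route differed little between libraries, although single enzymes went opposite ways. Its largest part in each library was LSS, with 7777 in mimic 2 and 8664 in control 2, against 5009.6 in mimic 1 and 5817 in control 1. The small difference of the sum therefore leans on the higher LSS in number 2. The summed normalized value of the 19 sterol enzymes was 26832 in mimic 2 and 26191 in control 2, against 25973 in mimic 1 and 26980.3 in control 1, and the highest library was 3.88% above the lowest. Per kilobase the highest library was 12.9% above the lowest, with 11929 in mimic 2 and 11211 in control 2, against 12315 in mimic 1 and 12653 in control 1. On that scale both number 2 libraries lay below both number 1 libraries. The median log2 difference of the 19 was 0.01, with 5 higher, 7 lower and 7 not passing.

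Among the regulators, INSIG1, which retains SCAP in the endoplasmic reticulum and is itself a well known SREBP target, had 3266 in mimic 2 and 3024 in control 2, against 5246 in mimic 1 and 5371 in control 1. It was 1.69-fold lower in number 2 (log2 difference -0.76, SE 0.08, limma adjusted p = 6.06e-05), and numbers did not overlap. SREBF1 had 3589 in mimic 2 and 3185 in control 2, against 2225 in mimic 1 and 2926 in control 1. It was higher in number 2 (log2 difference 0.41, SE 0.13, limma adjusted p = 0.0255), by 0.69 between the mimic libraries but only 0.12 between the controls. That call was lost without mimic 1 (0.21, adjusted p = 0.107), without mimic 2 (0.32, adjusted p = 0.235) and without control 2 (0.49, adjusted p = 0.0919). The estimates of its 2 main transcripts did not run together. The most abundant SREBF1 transcript had 1559.8 in mimic 2 and 1627 in control 2, against 992 in mimic 1 and 1116 in control 1, whereas the next had 1393 in mimic 2 and 1039 in control 2, against 969 in mimic 1 and 1473 in control 1. These estimates split shared reads between transcripts and were not tested.

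SREBF2 had 3723 in mimic 2 and 3171 in control 2, against 2556 in mimic 1 and 3063 in control 1, with mimic 2 high and mimic 1 low. Its difference of 0.30 (SE 0.11) had a limma adjusted p of 0.053, and passed without control 1 (0.43, adjusted p = 0.0173), in DESeq2 (0.29, adjusted p = 0.0384), with a pseudocount of 5 (0.30, adjusted p = 0.0479), with a mean of at least 50 (0.30, adjusted p = 0.0391) and with treatment as a term beside the number (0.30, adjusted p = 0.00596). SCAP differed by -0.03 and overlapped. STARD4 had 1156 in mimic 2 and 948 in control 2, against 1390.0 in mimic 1 and 1359.8 in control 1 (log2 difference -0.39, SE 0.11, limma adjusted p = 0.0157), a call that was lost without mimic 1 (-0.38, adjusted p = 0.0563), without control 2 (-0.25, adjusted p = 0.179) and by its highest transcript alone (-0.55, adjusted p = 0.0571).

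ABCA1, which passes cholesterol to lipid-poor apolipoproteins outside the cell, had 23172 in mimic 2 and 21450.5 in control 2, against 15080.1 in mimic 1 and 13766 in control 1. It was 1.55-fold higher in number 2 (log2 difference 0.63, SE 0.08, limma adjusted p = 0.000272), by nearly the same amount between the mimic libraries (0.62) and the controls (0.64).

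Of the fatty acid enzymes, none was higher in number 2 by the test, against 26.0% of all genes tested. Of 7, 2 were lower (28.6%, against 24.2% of all genes) and 5 did not pass, with a median log2 difference of -0.15. The share of lower genes lies near that of all genes and is no result about these enzymes as a group. ELOVL6, which lengthens saturated and monounsaturated chains, had 1159 in mimic 2 and 1196 in control 2, against 2030.3 in mimic 1 and 2036 in control 1 (log2 difference -0.79, SE 0.08, limma adjusted p = 6.75e-05). Its values were almost the same in mimic and control libraries of a number. ACLY, which splits citrate into the acetyl-CoA that both pathways use, had 10763 in mimic 2 and 10667 in control 2, against 13745 in mimic 1 and 14853 in control 1 (log2 difference -0.42, SE 0.08, limma adjusted p = 0.00185). The ACLY call was lost without mimic 2 (-0.42, adjusted p = 0.0503), without control 2 (-0.41, adjusted p = 0.0524) and by its highest transcript alone (-0.12, adjusted p = 0.301). The others are given by value: ACACA, the carboxylase, differed by -0.15; FADS1, a desaturase, by 0.03; and FADS2 by -0.12. FASN, the synthase itself, had 4899 in mimic 2 and 4884 in control 2, against 5041 in mimic 1 and 6202 in control 1, with control 1 the highest, a difference of -0.19 (adjusted p = 0.146, limma) that passed without mimic 1 (-0.34, adjusted p = 0.0058). For SCD the difference of 0.32 (adjusted p = 0.088, limma) was 0.61 between the mimic libraries and 0.04 between the controls, and it passed without control 2 (0.58, adjusted p = 0.0188) and with treatment as a term (0.32, adjusted p = 0.0014). The sum of the 7 was 52022 in mimic 2 and 43056 in control 2, against 46113 in mimic 1 and 49308 in control 1, 20.8% from lowest to highest.

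Set side by side, 12 of 19 sterol enzymes (63.2%) and 2 of 7 fatty acid enzymes (28.6%) passed, against 50.2% of all genes; no test of this difference in share was made. Uptake and endosomal genes gave 6 of 9 tested (66.7%), with 2 higher, 4 lower and a median of -0.26. VLDLR, a lipoprotein receptor, had 5370.0 in mimic 2 and 5646 in control 2, against 2146 in mimic 1 and 2252 in control 1 (log2 difference 1.32, SE 0.08, limma adjusted p = 2.17e-06). NPC1, which lets cholesterol out of lysosomes, had 23059 in mimic 2 and 24287 in control 2, against 14637 in mimic 1 and 15286 in control 1 (log2 difference 0.66, SE 0.08, limma adjusted p = 0.000119). Both were higher in number 2, with no overlap of the numbers. Of 7 genes of efflux, storage and oxysterols tested, 2 passed and the median was -0.04. CH25H, an oxysterol-forming hydroxylase that inflammatory signals are known to induce, had 281 in mimic 2 and 317 in control 2, against 57.6 in mimic 1 and 70.7 in control 1 (log2 difference 2.21, SE 0.19, limma adjusted p = 1.98e-05). NR1H2, a liver X receptor, had 1960.1 in mimic 2 and 1981 in control 2, against 2601 in mimic 1 and 3031 in control 1 (log2 difference -0.51, SE 0.09, limma adjusted p = 0.00174).

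Neighbouring lists likewise held genes in both directions; of all genes tested, 26.0% were higher and 24.2% lower. Of 6 genes of SREBP processing and other sterol genes, 2 were higher and 2 lower, with a median of -0.13. TMEM97, a sterol-responsive protein of the endoplasmic reticulum, had 305 in mimic 2 and 359 in control 2, against 1159 in mimic 1 and 1031 in control 1 (log2 difference -1.72, SE 0.12, limma adjusted p = 6.85e-06). INSIG2, the paralog of INSIG1, was higher in number 2 (log2 difference 0.53, SE 0.10, limma adjusted p = 0.00188), the opposite sign to INSIG1. Among 15 other fatty acid genes, 6 were higher and 3 lower, with a median of 0.14. The elongase ELOVL7 had 3192 in mimic 2 and 3408 in control 2, against 863 in mimic 1 and 718 in control 1 (log2 difference 2.07, SE 0.11, limma adjusted p = 9.67e-07). FADS3, a relative of FADS1 and FADS2, had 4655 in mimic 2 and 4426 in control 2, against 1025 in mimic 1 and 1363 in control 1 (log2 difference 1.94, SE 0.13, limma adjusted p = 3.76e-06). Of 10 genes on isoprenoid branches, 3 were higher and 4 lower, with a median of -0.03. PDSS1, which builds the side chain of coenzyme Q, had 168 in mimic 2 and 209.6 in control 2, against 503 in mimic 1 and 524 in control 1 (log2 difference -1.45, SE 0.15, limma adjusted p = 5.66e-05). Between mimic and control, 0 genes of these lists passed limma's test.

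**Figure D4:**
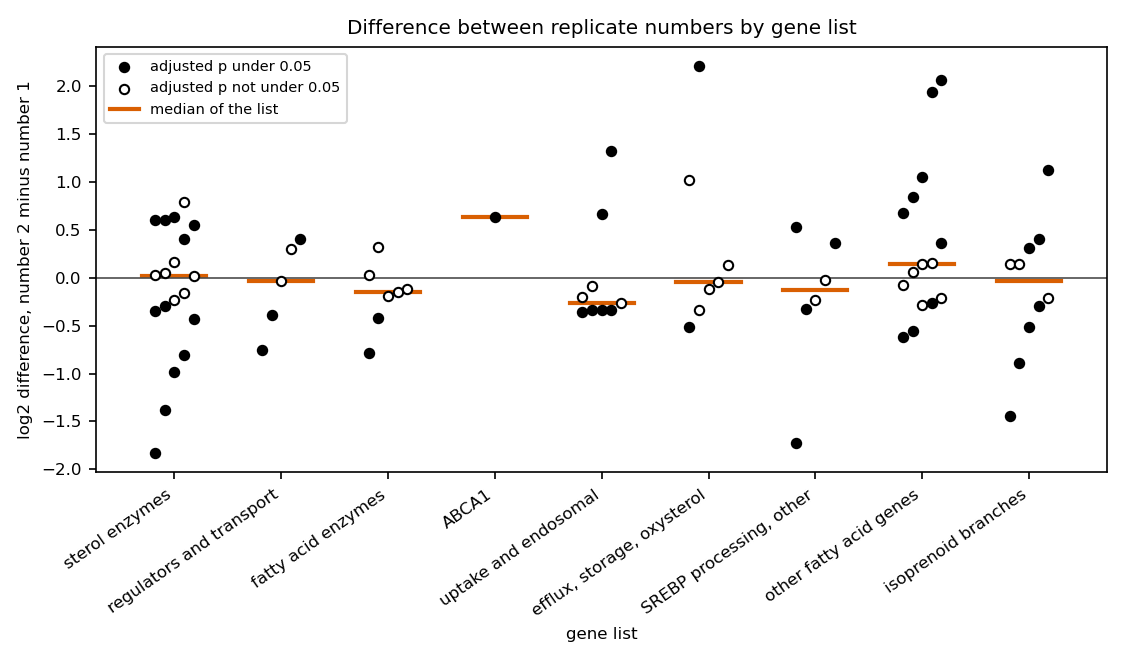
Log2 difference, number 2 minus number 1, of every gene tested in each list (filled where the limma adjusted p was under 0.05), with the median of the list as a bar. The sterol enzymes reach from EBP near -1.83 to TM7SF2 near 0.79 around a median of 0.01, and the 7 fatty acid enzymes lie between -0.79 and 0.32.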

How the data were processed

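The deposited table gives, for each of 100809 Ensembl transcripts and each of 4 libraries, a normalized signal that is not whole. Per the submitters' processing notes the authors used kallisto and DESeq2 with the build hg38; versions and the annotation release are not given in the sources used here. RNA was poly(A)-selected and sequenced as pairs, per the labels' protocols. Among the low deposited values, 95.6% to 99.7% were whole multiples of 1 step per library within a tolerance of 0.1. Higher values were not checked for this. All values were divided by the step and rounded to whole reads (28860788 to 33848402 per library) for the count tools. The smallest row sum was 10 reads. By identifier without version, 90627 transcripts (89.9%) matched GENCODE v29, 79272 with the same version, and were summed over 22017 genes; the rest held 3.26% to 3.57% of the values and were left out. Values per kilobase divide each transcript by its GENCODE length. Near-identical copies can trade reads when these are split among transcripts.

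Genes with a mean of at least 10 were tested with limma with a trend on log2(value + 1), two-sided, with Benjamini-Hochberg adjustment at 0.05 over all of them; the log2(value + 1) scale understates changes of low genes. This was done for mimic against control and for number 2 against number 1. The members and lists were chosen with earlier results of these data known. Named were all 32 members and, of each other list, the 2 genes with the largest differences among those past the number test. A gene that this rule takes is not reported here. Cell type markers were fixed as lists, and those named singly were chosen after their values were seen. Other genes of these pathways were not analysed here. The fits were tested on simulated counts in which all genes shared the same spread setting, unlike real genes. The outcome is not given here, and no result above rests on it. The number of libraries, 4, limits the precision of every value. Alternatives were other scalings, pseudocounts, filters and tools, the highest transcript or same versions only, the number as a block and each library left out; the block in edgeR was added after the data were seen. Python 3.11.15 with numpy 2.4.6, pandas 2.3.3 and matplotlib 3.10.9, and in R 4.3.3 the packages edgeR 4.0.16, DESeq2 1.42.0 and limma 3.58.1, were used.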

Additional observations from a re-analysis of the deposited data

Results flagged for a closer look

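In 2 members the mimic and control libraries differed one way in number 2 and the other way in number 1, by at least 0.2 on the log2 scale each time, a minimum that was chosen after the data were seen. The difference between numbers was not tested, since each value rests on 1 mimic and 1 control library. DHCR7, the reductase of the last cholesterol step, differed by 0.41 (mimic minus control) within number 2 and by -0.24 within number 1. SREBF2, the gene of the sterol-directed SREBP, differed by 0.23 within number 2 and by -0.26 within number 1. Groups of 2 libraries are too small for a test of single libraries that stand apart.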

How the results depend on the processing

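With 2 libraries a group, calls rest on a spread borrowed across genes, and depth limits TM7SF2 most. All 18 number calls of members were kept under TMM scaling, equal totals, both pseudocounts, both filters, edgeR, DESeq2 and the replicate block. With a library left out, 12 to 17 members and 5160 to 7941 genes were called between numbers, with 5160 without mimic 2 and 5420 without control 2. With only transcripts of the same version, 7 members and 3963 genes were called; for 15 members such transcripts held under 20% of the value. Lost were ACAT2, EBP, HMGCS1, LBR, MSMO1, NSDHL, PMVK, SC5D, SQLE, SREBF1 and STARD4; of these HMGCS1 kept 99.3% of its value, NSDHL 70.6%, SC5D 62.8% and SREBF1 54.01%, which was not traced further, while ACAT2 and PMVK were then too low to test. Signs then turned for SQLE (-0.78), LBR (1.08), SREBF2 (-0.25), STARD4 (0.47) and FADS2 (0.26) between numbers, and for TM7SF2 (-1.49) and STARD4 (-0.49) between mimic and control. With equal totals FDFT1 (-0.031), HSD17B7 (-0.016) and FADS1 (-0.018) turned, as did FDFT1 in DESeq2 (-0.0019) and TM7SF2 by its highest transcript (-0.14); the cause was not tested. With a library left out, number differences ran from -0.16 to 0.19 for FDFT1, from -0.037 to 0.093 for HSD17B7, from -0.22 to 0.15 for SCAP, from -0.043 to 0.095 for FADS1 and from -0.36 to 0.11 for FADS2. Mimic differences then ran from -0.076 to 0.53 for SCD, from -0.30 to 0.74 for TM7SF2, from -0.063 to 0.47 for HMGCS1, from -0.50 to 0.13 for LSS, from -0.88 to 0.56 for ACAT2 and from -0.10 to 0.42 for STARD4.

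With replicate number as a block, limma called 117 genes between mimic and control (55 higher, 62 lower) and edgeR, an alternative chosen after seeing the data, 91; neither called a member. The smallest adjusted p of a member was 0.499 in limma and 0.530 in edgeR, both for SCD. Same-numbered libraries deviated together from their group means (r = 0.745 across genes, which are not replicates), but the labels do not say that the numbers pair libraries, and the blocked limma fit used 1 variance trend for all genes. The block also added FDPS, SCD and SREBF2 to the number calls.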
